A study of Homo sapiens with 2 samples.

Results

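The genes described here are 10 transcriptional regulators of the RUNX, SOX and ETS families together with LBH, BHLHE40 and HMGA2, measured in A549 cells, a human lung carcinoma line of epithelial origin. They were taken by gene symbol from all probe sets of an Affymetrix expression array, on which 19775 genes had a probe set annotated to a single symbol. RNA came from a culture labelled control, which received no TGF-β, and from a culture exposed for 12 h to TGF-β at 1 ng/ml. All cells were parental A549, with no transgene or knockdown named in the labels. Each culture was hybridized to 1 array, so every difference below is between 2 single arrays, without a replicate check or a p-value, and the precision is limited by that number.

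TGF-β acts through receptor kinases that phosphorylate Smad proteins, which bind DNA weakly by themselves and are recruited to genes by partner transcription factors. RUNX proteins are such partners. They bind DNA through the Runt domain and are stabilized by CBFB, a subunit that does not itself touch DNA. SOX proteins bend DNA through an HMG box, ETS proteins bind through a winged helix domain and several of them, including ETS1 and ETS2, are phosphorylated by ERK kinases. LBH is a small nuclear cofactor first described in limb bud and heart, BHLHE40 is a repressor that binds E-boxes and dampens the circadian clock, and HMGA2 is an architectural protein with AT-hooks that is abundant in embryonic tissue and in many carcinomas.

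The signals were intensities on a linear scale from MAS5, an Affymetrix method that summarizes each probe set as 1 value. Both arrays had a trimmed mean signal of 500, so they had been scaled to the same level. The background level was taken as the highest signal among 27 probe sets for Bacillus subtilis transcripts, which was 45.8 for the control and 56.6 for TGF-β. The ratio of 3′ to 5′ signals, a measure of RNA integrity, was 0.945 and 0.957 for GAPDH and 1.98 and 1.83 for ACTB. Keratins of simple epithelium were bright, with KRT18 at 33810 in the control and 38248 with TGF-β. All 10 epithelial markers were measured, with a median log2 fold change of -0.50, and AGR2 and CDH1 were at least 2-fold lower with TGF-β. Of the fibroblast markers, none of 9 was above background on both arrays, with COL1A2, COL3A1 and PDGFRA under it on each array. THY1 and DCN were above it in the control alone, at 82.5 and 47.5. Blood cell markers above background on both arrays numbered 3 of 8, namely CD14 (190 and 63.0), CD3E (48.8 and 74.8) and LAPTM5 (59.6 and 89.2). The same held for 1 of 7 endothelial markers and for 2 of 7 markers of chondrocytes and osteoblasts. Of 9 alveolar and lung lineage markers 5 were measured, with a median log2 fold change of -0.22. SFTPC read 58.9 and 84.7, HOPX 282 and 171, and the lung lineage factor NKX2-1 14.7 and 11.0. In RNA from whole cultures, more cells that express a gene and more RNA per cell cannot be told apart.

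Promoter sequences are shown for the regulators that were at least 2-fold higher with TGF-β and had a window in the RefSeq table, and for an upstream start of RUNX2, which was not 2-fold higher and was added after its motif matches had been counted. Each window runs from 250 bases before to 50 bases after an annotated start in GRCh38.p14. Of the 10 genes, 6 had a window, and no window was used for CBFB, SOX9, ETS1 or HMGA2. The RUNX1 window was scanned but is not printed. Capitals mark matches, on either strand, to the CAGAC element to which Smads bind, the E-box CACGTG bound by BHLHE40, the RUNX core TGTGGT, the ETS site CCGGAA, the SOX sites AACAAT and ACAAAG, and the AP-1 site TGANTCA. ETS2 has a second annotated start, whose window held none of these motifs.
LBH, chr2:30231284-30231583, + strand: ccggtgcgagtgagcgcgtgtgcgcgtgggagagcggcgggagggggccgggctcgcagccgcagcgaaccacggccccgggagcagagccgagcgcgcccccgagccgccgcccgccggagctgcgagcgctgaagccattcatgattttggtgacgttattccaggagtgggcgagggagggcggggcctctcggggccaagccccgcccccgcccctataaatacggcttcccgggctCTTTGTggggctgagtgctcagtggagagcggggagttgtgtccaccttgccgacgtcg
SOX4, chr6:21593501-21593800, + strand: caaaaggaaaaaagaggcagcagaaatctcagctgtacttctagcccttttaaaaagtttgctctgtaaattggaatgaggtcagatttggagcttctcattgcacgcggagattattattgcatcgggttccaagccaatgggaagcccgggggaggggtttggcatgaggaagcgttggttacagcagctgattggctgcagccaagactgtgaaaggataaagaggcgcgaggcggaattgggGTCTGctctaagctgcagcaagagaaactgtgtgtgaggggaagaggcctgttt
BHLHE40, chr3:4979187-4979486, + strand: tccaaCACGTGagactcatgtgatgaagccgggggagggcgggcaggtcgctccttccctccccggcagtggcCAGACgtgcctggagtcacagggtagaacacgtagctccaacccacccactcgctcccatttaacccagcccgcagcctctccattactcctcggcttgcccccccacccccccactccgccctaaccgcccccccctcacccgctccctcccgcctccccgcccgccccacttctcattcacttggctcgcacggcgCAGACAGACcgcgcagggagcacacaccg
ETS2, chr21:38804933-38805232, + strand: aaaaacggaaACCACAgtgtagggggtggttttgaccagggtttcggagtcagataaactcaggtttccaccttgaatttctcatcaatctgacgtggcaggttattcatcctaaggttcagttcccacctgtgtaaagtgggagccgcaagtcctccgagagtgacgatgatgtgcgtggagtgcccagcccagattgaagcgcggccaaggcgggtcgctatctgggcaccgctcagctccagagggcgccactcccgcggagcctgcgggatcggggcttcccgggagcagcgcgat
RUNX2, chr6:45328080-45328379, + strand: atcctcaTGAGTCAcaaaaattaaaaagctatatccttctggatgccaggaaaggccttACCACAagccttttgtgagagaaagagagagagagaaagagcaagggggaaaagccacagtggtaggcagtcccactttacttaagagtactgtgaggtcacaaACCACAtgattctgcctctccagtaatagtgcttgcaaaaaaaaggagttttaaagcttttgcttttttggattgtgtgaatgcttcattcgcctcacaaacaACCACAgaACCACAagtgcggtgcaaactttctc

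The BHLHE40 window held 3 matches to CAGAC, the last 2 of which overlap by 1 base, and 2.87% of 35116 windows of the same length held at least as many. It also held 1 match to the E-box, the motif of the BHLHE40 protein itself, which was present in 7.26% of all windows. SOX4 had a single CAGAC across its start, and 45.3% of all windows held the motif. The upstream ETS2 window held the RUNX core once, a motif present in 13.1% of all windows. LBH, the gene with the largest fold among the regulators, had neither a CAGAC nor an E-box in this window and only 1 match to ACAAAG, a motif found in 16.1% of windows. The upstream RUNX2 start had 4 matches to the RUNX core, and 0.0142% of windows held at least as many. The other annotated RUNX2 start had no match to any of the motifs. The RUNX1 window held 1 match to CCGGAA, a motif present in 17.25% of all windows, and no other match. A match of letters is a description of the sequence and not evidence of binding.

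Of the 10 genes, 9 had probe sets annotated to a single symbol, 34 in all. RUNX1 had none, because each of its 13 probe sets is annotated to RUNX1 and to a pair of noncoding genes. Probe sets were used if their 2 signals averaged at least 48.7, which is the median of that average over the array, and each gene takes its values from the brightest one used. All 9 genes passed, with 17 kept probe sets, each above background on both arrays. Of the other 17 probe sets, 14 were at or under background on both arrays and have no usable ratio, 2 were above it in the control alone and 1 with TGF-β alone.

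After 12 h with TGF-β, 5 of the 9 measured regulators were at least 2-fold higher and none was 2-fold lower. They were LBH, SOX4, BHLHE40, ETS2 and HMGA2. Across the 12375 genes measured in the same way, 3.94% were at least 2-fold higher and 2.96% at least 2-fold lower. The median log2 fold change was 1.16 over the 9 regulators and -0.03 over all genes. Every one of the 9 had a higher signal with TGF-β, compared with 5621 of the 12375 genes, and 7 were at least 1.5-fold higher, a size reached by 9.16% of all genes. LBH is among the genes that the study listed from these same arrays, so its change is no independent evidence of the direction. All the regulators were chosen with earlier results of these data known. The comparison with all genes therefore describes them and is no independent evidence.

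**Figure D1:**
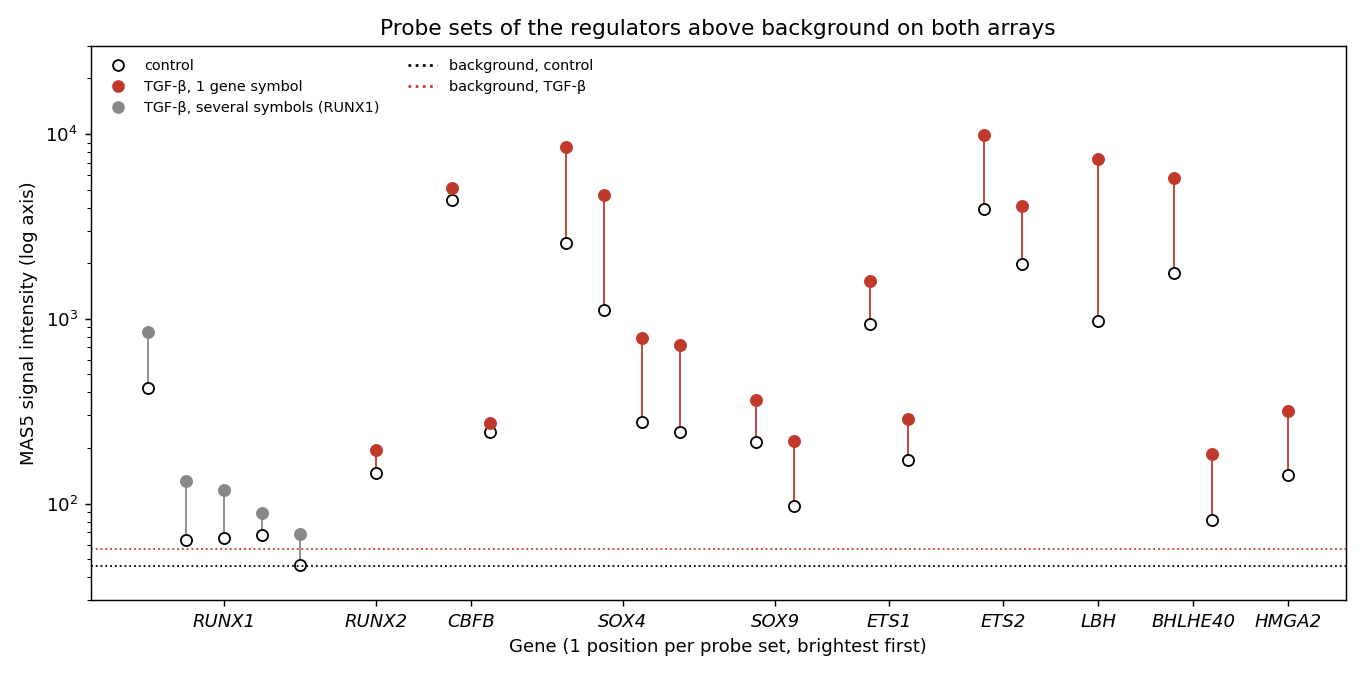
Signals of the probe sets of the regulators that were above background on both arrays, as MAS5 intensities on a log axis, for the control array (open points) and the TGF-β array (filled points). Dotted lines mark the background levels of 45.8 (control, black) and 56.6 (TGF-β, red). All 17 probe sets of a single symbol and the 5 grey ones shared by RUNX1 and other genes lie higher with TGF-β.

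LBH had 1 probe set, which read 973 without TGF-β and 7330 with it. This is a 7.53-fold difference with a log2 fold change of 2.91. Among the 11513 genes whose signals were above background on both arrays, it had the rise ranked 13. As a guide to scatter, log2 fold changes over the 500 probe sets of most similar brightness had a spread of 0.24, a scaled median absolute deviation. It is a spread among probe sets, since there were no replicates. The name of the LBH probe set ends in _s_at, a mark for probes that can match more than 1 transcript.

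SOX4, a member of the SOXC group that is widely expressed in carcinomas, was measured by 6 probe sets. On the brightest, the signal was 2562 without TGF-β and 8472 with it, which is 3.31-fold. The second went from 1118 to 4688, or 4.19-fold. A dimmer pair gave 2.86-fold, from 275 to 787, and 2.99-fold, from 243 to 726. All 4 kept probe sets thus exceeded 2-fold, and the spread at the brightness of the first was 0.20 against a log2 fold change of 1.73. Of the remaining 2, 1 was under background on both arrays. The last had a control signal of 63.8 and a TGF-β signal of 11.9, under background, which is at least 1.13-fold lower.

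SOX9, a SOXE factor that directs cartilage formation and marks distal progenitors of the developing lung, was dimmer. Its brighter probe set read 216 and 362, a 1.68-fold difference, and its other probe set read 97.4 and 219, a 2.25-fold difference. The gene therefore lay on either side of 2-fold depending on the probe set, and the spread at these signals was 0.40 and 0.42 on the log2 scale. Among the factors closest to SOX4 and SOX9 by subgroup, chosen after their values had been seen, SOX12 read 492 and 330, while the brightest probe sets of SOX11, SOX8 and SOX10 were under background on both arrays.

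BHLHE40 was represented by 2 probe sets. The brighter went from 1760 to 5776, a 3.28-fold difference with a log2 fold change of 1.71 and a spread of 0.22. The other, close to background, went from 81.8 to 185, or 2.26-fold. SOX4 and BHLHE40 were adjacent in rank, 77 and 78 among the rises, and their log2 fold changes were closer to each other than the spread at their brightness. The related repressor BHLHE41 read 152 and 153.

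The ETS factors differed in size. ETS2 went from 3933 to 9908 on its brightest probe set, 2.52-fold, and from 1984 to 4068 on the next, 2.05-fold. The remaining probe set was under background in the control and 59.4 with TGF-β, at least 1.30-fold higher. ETS1 was 1.72-fold higher, from 934 to 1608, and a second probe set gave 1.66-fold, from 172 to 286. The last ETS1 probe set had a control signal of 64.5 and a TGF-β signal of 15.1, under background, which is at least 1.14-fold lower. Both ETS1 values above background stayed short of 2-fold, and the spread at its brightest signal was 0.29 against a log2 fold change of 0.78.

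HMGA2 had 9 probe sets, of which only 1 was above background. It read 143 without TGF-β and 319 with it, a 2.23-fold difference with a log2 fold change of 1.16 and a spread of 0.39. The other 8 were under background on both arrays, and their ratios, which point both ways, were not used. HMGA1, the other gene of the family, read 6165 and 6569, a 1.07-fold difference.

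RUNX2 and the RUNX partner CBFB had the smallest folds of those counted. RUNX2, the master regulator of bone formation, had 1 of 6 probe sets above background, which read 146 and 195, or 1.34-fold. Its log2 fold change of 0.42 was within the spread of 0.48 at that brightness. CBFB read 4393 and 5093 on its bright probe set, 1.16-fold, and 243 and 272 on the other, 1.12-fold. For CBFB, too, the log2 fold change of 0.21 was within the spread of 0.24. RUNX3, chosen after its value had been seen, had a control signal of 214 and a TGF-β signal of 131, which is 1.62-fold lower.

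For RUNX1 only shared probe sets can be given. The brightest of them read 425 and 849, a fold of 1.997, just under 2. Another 4 were above background on both arrays and gave 2.09-fold, 1.83-fold, 1.31-fold and 1.46-fold, all with control signals between 46.7 and 68.0. A further probe set was above background with TGF-β alone, at 64.6, and the last 7 were under background on both arrays. In the RefSeq annotation of GRCh38.p14 neither noncoding gene overlaps RUNX1 on the chromosome. The probe sequences were not used here, so which transcripts these probe sets bind was not tested, and RUNX1 is left out of the counts because no probe set names it alone.

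**Figure D2:**
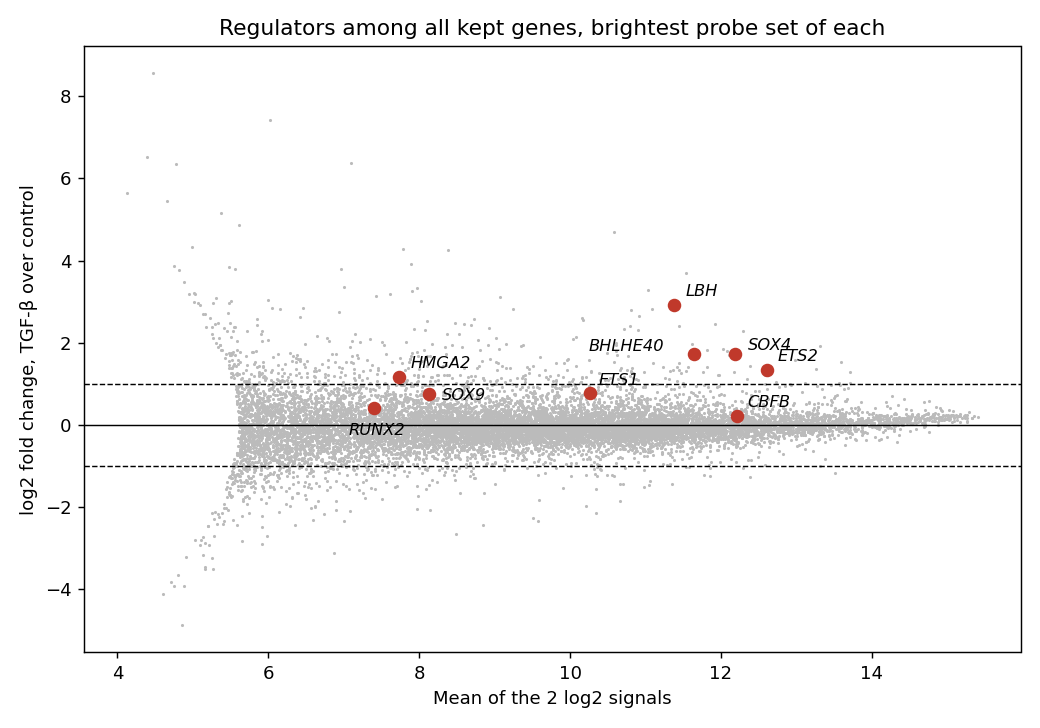
Log2 fold change of TGF-β over control against the mean of both log2 signals for 12375 genes (grey), each by its brightest probe set, with the 9 measured regulators in red. Dashed lines mark 2-fold. LBH, SOX4, BHLHE40, ETS2 and HMGA2 lie above the upper dashed line, and CBFB and RUNX2 lie nearest to 0.

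The other genes of the families and some of their known targets were set beside the regulators as lists, each counted at 2-fold and described without a test. Of 13 genes for RUNX3, RUNX corepressors and RUNX-binding coactivators, 11 were measured, none was 2-fold higher and 1 was lower. The lower gene was TLE4, a Groucho-type corepressor, which read 239 and 87.3, or 2.73-fold lower. The median log2 fold change of this list was 0.01. YAP1 and WWTR1, coactivators that bind RUNX proteins, read 3757 and 3715, and 9870 and 11541.

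Only 6 of 17 other SOX factors were measured, with a median log2 fold change of -0.53. None was 2-fold higher, and SOX13 alone was 2-fold lower, from 193 to a TGF-β signal under background, at least 3.40-fold. With signals under the background raised to it the median was -0.46. By the median over probe sets no gene of this list was 2-fold lower.

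Of 25 other ETS factors, 18 were measured, 1 was 2-fold higher and 4 were lower. The lower genes numbered 3 with signals under background raised to it, and 2 with 50 added to every signal, by the median over probe sets or with a mean signal of at least 349. The higher one was ELK3, a ternary complex factor that works with SRF, from 4033 to 9289, or 2.30-fold. EHF, an epithelial ETS factor, was 6.28-fold lower, from 901 to 143, and SPDEF, known from mucus-secreting cells, was 2.46-fold lower, from 169 to 68.6. The fall of FLI1 rested on a TGF-β signal under background and was at least 1.42-fold. FLI1 was measured only through its control signal of 80.5. ETV1, outside the naming rule, was 2.33-fold lower, from 536 to 230. The median of the list was -0.01. Of the ETS genes above background on both arrays, ETS2 and ELK3 were thus past 2-fold higher and EHF, SPDEF and ETV1 past 2-fold lower. The TGF-β signal of SPDEF was close to the background of 56.6. At a threshold of 1.5-fold, 4 genes of the list were higher and 5 lower.

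Among 21 measured bHLH repressors and clock genes of 24, 1 was 2-fold higher and 5 were lower, and the median log2 fold change was -0.21. ID4 and ID2, which block DNA binding by other bHLH proteins, were 4.81-fold and 3.56-fold lower, from 1599 to 333 and from 1453 to 408. The brighter ID genes did not share this fall, with ID1 at 14791 and 12563 and ID3 1.54-fold higher, from 10528 to 16174. PER2, a component of the circadian clock that was named after its value had been seen, was 2.39-fold lower, from 2025 to 848. The falls of the clock output factors HLF and DBP rested on TGF-β signals under background, and HLF was at least 1.65-fold lower. Both genes were measured only through their control signals, 93.6 and 72.5. HES6, the higher gene, went from a control signal under background to 102, at least 2.22-fold, and was measured only through that TGF-β signal. With signals under the background raised to it, 3 genes were 2-fold lower instead of 5, and without probe sets marked as sharing targets 2 were. The higher count was 0 with signals raised to the array median or with a mean signal of at least 349. CLOCK read 1015 and 722, BMAL1 648 and 1046, and CRY1 1641 and 1709.

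Of 12 genes around HMGA2, namely HMGA1, the LIN28 proteins that block maturation of let-7 and other genes that let-7 represses, 9 were measured and none differed by 2-fold. The largest change was that of PLAG1, 1.56-fold lower, from 104 to 66.2. LIN28B read 1872 and 1392 and IGF2BP3 3309 and 4708. The median log2 fold change of the list was 0.02, compared with 1.16 for HMGA2 itself.

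**Figure D3:**
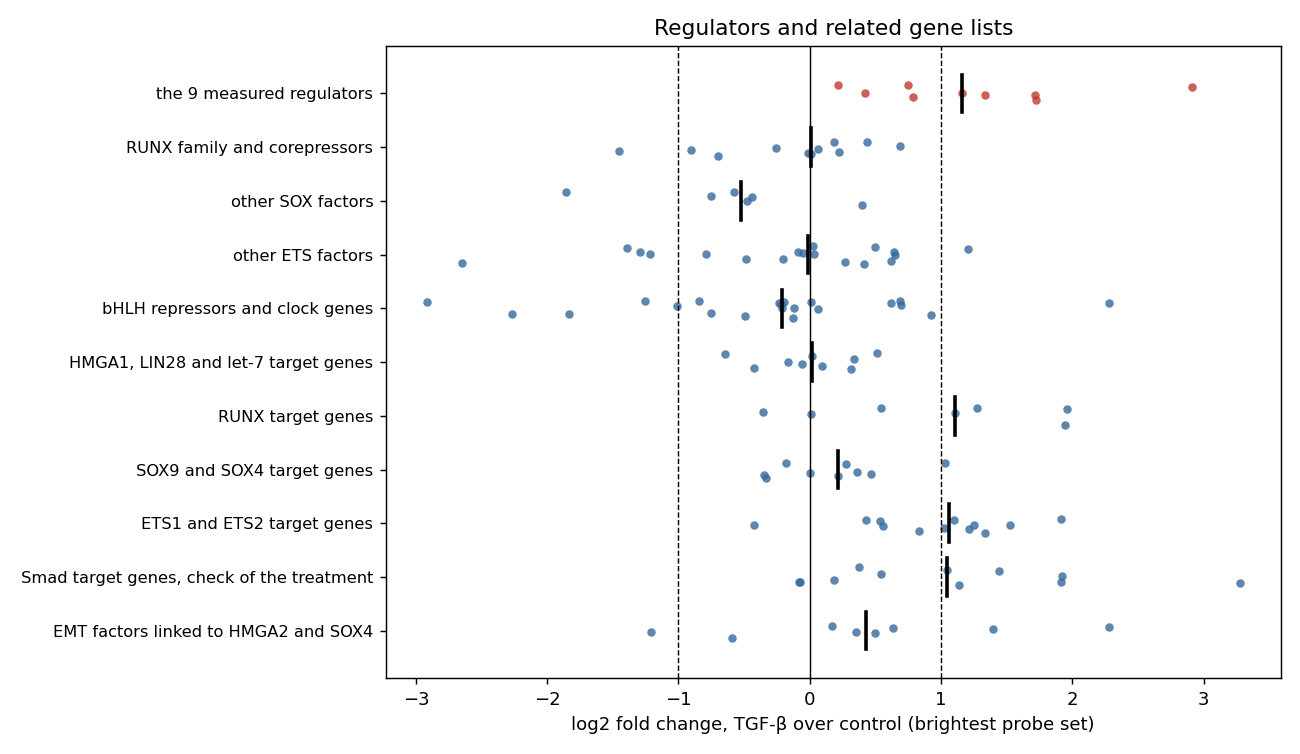
Log2 fold changes of TGF-β over control for the 9 measured regulators (red) and for the measured genes of each related list (blue), each point a gene by its brightest probe set. Black bars are medians and dashed lines mark 2-fold. The medians lie at 1.16 for the regulators, 1.11 for RUNX targets, 1.06 for ETS targets and 1.04 for Smad targets, and the remaining lists lie between -0.53 and 0.42. The target lists share genes, with JUNB in those of ETS and Smad and SMAD6 in those of RUNX and Smad. All lists were chosen with earlier results of these data known.

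Among genes known as targets of RUNX factors, 7 of 14 were measured and 4 were 2-fold higher, or 3 when signals under background were raised to it. TGFBR1, the type I receptor for TGF-β, went from 1586 to 6178, or 3.90-fold, and the cell cycle inhibitor CDKN1A from 1154 to 2792, or 2.42-fold. VEGFA was 2.16-fold higher, from 3533 to 7619. CSF1R, the gene lost by that floor, had a control signal under background and was at least 1.75-fold higher. It was measured only through its TGF-β signal of 80.4. SPP1, which encodes osteopontin, read 26651 and 26863, and the bone genes MMP13 and IBSP were under background on both arrays. The median log2 fold change of the list was 1.11, and 0.81 with the background floor. Without probe sets marked as sharing targets, 1 gene of the list was 2-fold higher. SMAD6 is also in the list of Smad targets, and which factor acts on these genes was not tested.

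Of 16 targets of ETS1 and ETS2, 12 were measured, 7 were 2-fold higher, or 6 with signals under background raised to it, and none was lower. JUNB, an AP-1 factor that is also in the list of Smad targets, was 3.77-fold higher, from 337 to 1271. PLAU, the urokinase plasminogen activator, was 2.88-fold higher, from 7279 to 20966, and its receptor PLAUR 2.52-fold, from 1025 to 2584. The integrin subunit ITGAV went from 8522 to 17297, or 2.03-fold, MMP3 from 286 to 613, or 2.15-fold, and MMP9 from 85.2 to 197, or 2.31-fold. FLT1 had a control signal under background and was at least 1.71-fold higher. Like CSF1R, it was measured only through its TGF-β signal, here 78.5, so it could be counted only as a rise. The sprouty-related inhibitor SPRED1 read 1682 and 1250. The median was 1.06, or 0.93 with the background floor. Many of these genes also respond to Smad or AP-1 factors, and which factor acts on them was not tested. With 50 added to every signal 4 genes of the list were 2-fold higher, and without probe sets marked as sharing targets 3.

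Of 19 targets of SOX9 and SOX4, 9 were measured and 1 was 2-fold higher, with a median log2 fold change of 0.21. The gene past 2-fold was TEAD2, a partner of YAP that SOX4 is known to activate, from 166 to 339, or 2.04-fold. The count was 0 after adding 50 to each signal, by the median over probe sets or with a mean signal of at least 349, and 2 when each gene took its most changed probe set or when probe sets marked as sharing targets were left out. EZH2, another SOX4 target, read 1638 and 1298, and TUBB3 7585 and 8785. Cartilage genes that SOX9 drives in chondrocytes were dim, with COL2A1 under background on both arrays and ACAN at 99.9 and 78.5.

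Smad targets, a check of the treatment, were 2-fold higher in 6 of 11 measured genes and lower in none, with a median log2 fold change of 1.04. CCN2, itself on the study's list from these arrays, was 9.69-fold higher, PMEPA1 3.79-fold and JUNB 3.77-fold. Of 10 genes of epithelial-mesenchymal transition linked to HMGA2 and SOX4, 8 were measured, 2 were 2-fold higher and 1 was lower. SNAI2 went from a control signal under background to 133, at least 2.90-fold, and was measured only through that TGF-β signal. FN1 was 2.63-fold higher, and CDH1, which encodes E-cadherin, was 2.31-fold lower, from 1952 to 846. Without probe sets marked as sharing targets the lower count of this list was 0. With a mean signal of at least 349 the higher count was 1. SNAI1, a gene that HMGA2 is known to activate together with Smads, read 100.1 and 113, and ZEB1 read 1658 and 2344. TWIST1 and ZEB2 were under background on both arrays.

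LBH, SOX4, BHLHE40 and ETS2 were at least 2-fold higher under every alternative that left them a value, and the lowest log2 fold changes were 2.85, 1.65, 1.45 and 1.18. HMGA2 reached a log2 fold change of 0.93 when 50 was added to every signal, which is under 2-fold. Only the probe set of largest change put SOX9 past 2-fold, at 1.17. ETS1 lay between 0.75 and 0.83, RUNX2 between 0.32 and 0.47 and CBFB between 0.19 and 0.26. Without probe sets whose names mark shared targets, 4 of the 9 genes remained and 2 of them, SOX4 and ETS2, were 2-fold higher.

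**Figure D4:**
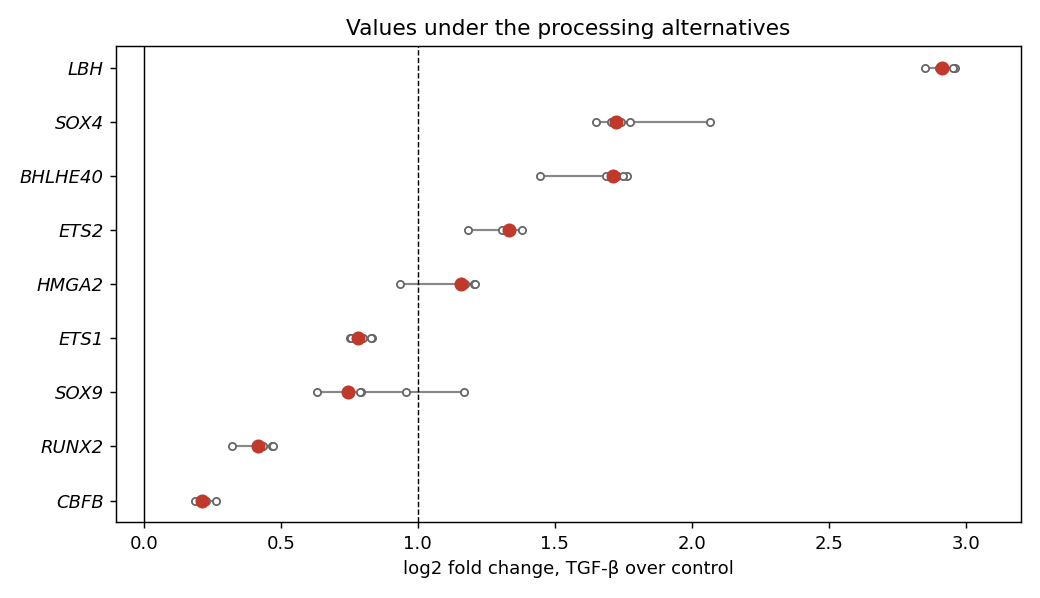
Log2 fold change of TGF-β over control for each measured regulator with the settings used in the text (red) and under each processing alternative (open points), with a line from the lowest to the highest. The dashed line marks 2-fold. LBH, SOX4, BHLHE40 and ETS2 stay to the right of it, HMGA2 and SOX9 have points on both sides, and ETS1, RUNX2 and CBFB stay to the left.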

How the data were processed

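RNA of A549 cells kept without TGF-β or with 1 ng/ml of it over 12 h was hybridized to 1 array per condition. The deposited values are linear intensities per probe set that the authors made with MAS5, named without a version in the submitters' processing notes, and the genome build is not given in the sources used here. The platform annotation listed 1 symbol for 41091 of the 54613 probe sets other than controls, several for 1801, and did not list 11721. Current symbols were looked up by gene identifier in RefSeq (GRCh38.p14). Fold changes are TGF-β over control, with no further scaling. Where the dimmer signal was at or under background, the fold is a lower bound, computed against that level. Probe sets with a mean signal under 48.7 were left out, which kept 27307 probe sets and 12375 genes.

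The members, the gene lists and the threshold of 2-fold were chosen with earlier results of these data known. All members were named. From every list the 3 largest rises and the 3 largest falls past 2-fold were taken, and where no gene reached 2-fold, the one that changed most. Other genes were named after their values had been seen. No test was computed. The counting rule was run on simulated data with planted folds and the same noise at every brightness. That run checks the code and does not measure the error of the counts here, where the spread was larger at dim signals. Alternatives were other filters, floors, an offset, scaling by medians, quantiles or loess (span 0.3), other choices of probe set and a threshold of 1.5-fold. Computations used Python 3.11.15 with pandas 2.3.3 and numpy 2.4.6. Loess came from statsmodels 0.14.6, the trimmed means from scipy 1.17.1 and the plots from matplotlib 3.10.9.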

Additional observations from a re-analysis of the deposited data

How the results depend on the processing

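The alternatives vary the processing of the same 2 arrays and say nothing of the variation between cultures. The number of regulators at least 2-fold higher, 5 of 9, was between 4 and 6 under the other filters, floors, scalings and choices of probe set and 7 at a threshold of 1.5-fold. It was 2 without probe sets whose names mark shared targets, because LBH, BHLHE40, HMGA2, SOX9 and CBFB have no other kept probe set. None was 2-fold lower under any alternative, and the median log2 fold change lay between 0.93 and 1.52. Counting RUNX1 by its brightest shared probe set, an alternative chosen after seeing the data, left 5 genes higher and gave a median of 1.08. Over all genes, 2110 were 2-fold higher and 2395 lower without the filter on dim signals, and 197 and 63 with a mean signal of at least 349, so the excess of rises turned without the filter. Signal over background limits RUNX2, HMGA2 and SOX9 most. No paired analysis was possible because each condition has 1 array.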
